A study of Mus musculus with 4 samples.

Results

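The cytosolic ribosomal protein genes were described in mouse CD4+ T cells with and without the retroviral transcription factor Tox2. They were taken by name as every listed gene whose symbol starts with Rpl or Rps and a digit, leaving out pseudogene symbols (-ps) and the S6 kinases (Rps6k). The rule found 81 of 11027 listed genes, all of which were among the 10960 genes tested. Of these 81, 73 are canonical ribosomal proteins, 43 of the large 60S subunit (Rpl) and 30 of the small 40S subunit (Rps). The other 8 carry such a name without being the canonical gene. They are the paralogs Rps27l, Rpl22l1, Rpl36al and Rpl39l, the retrogenes Rps27rt and Rpl37rt, and Rpl7l1 and Rps19bp1, which encode related or interacting proteins.

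The cells came as naive CD4+ T cells out of the lymph nodes and spleen of wild-type C57BL/6 mice, 7 to 8 weeks old, and were activated and infected in neutral conditions. The 4 groups, with 1 RNA-seq library each, were Tfh-like Tox2 and Tfh-like GFP (sorted cells with Tox2-RV-GFP or with GFP-only retrovirus, cultured with blocking antibodies to IFN-gamma, IL-4 and IL-2, plus IL-6) and Th0 Tox2 and Th0 GFP (the same viruses and antibodies, no IL-6). All 4 therefore carried a GFP retrovirus, and Tox2 was expressed from a viral vector and not from its own locus. How many animals or cultures stand behind a library is not given in the labels, so the comparisons are between libraries. Tox2, a DNA-binding protein of the TOX family, had 32246 counts in Tfh-like Tox2 against 851 in Tfh-like GFP, and 35297 in Th0 Tox2 against 144 in Th0 GFP, as labelled. Libraries held 13015283 to 13673774 counts over the listed genes. The summed CPM (counts scaled to library size by TMM) of the 9 listed of 12 CD4 T-cell markers was 5646 to 6142. Cd3e, Cd4 and Cd28 were among the 9, while Trac, Trbc1 and Trbc2 were not listed. Markers of other blood cells were low: 9.14 to 15.4 for Cd8b1, the 1 listed of 2 CD8 markers, and 2.90 to 29.9 for the 2 listed of 6 B-cell markers. The values were 8.27 to 14.3 for 3 of 7 myeloid, 1.99 to 4.93 for 2 of 4 dendritic and 0.0720 to 0.744 for 1 of 5 erythroid markers. Of 3 NK markers, 0 were listed.

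Each ribosome holds about equal numbers of the core ribosomal proteins, so cells keep their synthesis matched. In mammals the mRNAs typically begin with a C followed by a run of pyrimidines, the 5′ terminal oligopyrimidine (TOP) motif, through which the kinase mTORC1 and the RNA-binding protein LARP1 set their translation. Their genes have also seeded many near-identical processed pseudogenes and a few expressed retrogenes. T cells make ribosomes in large numbers after activation, before they divide.

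The annotated transcription starts were read from RefSeq on build GRCm38.p6, where 62 of the 81 genes matched. A C at the start followed by at least 4 more pyrimidines was found in 13 of these 62 genes (20.97%), against 2.88% of the 8816 other genes in the tables that have a start. The starts below run from 15 bases before to 15 bases from the start, with that run in capitals, and are shown for the genes the results turn on and for examples with and without the run.
Rps6 (chr4:86857353-86857382, minus strand): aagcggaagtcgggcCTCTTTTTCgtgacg
Rps18 (chr17:33955651-33955680, minus strand): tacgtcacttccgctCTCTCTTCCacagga
Rpl28 (chr7:4792950-4792979, plus strand): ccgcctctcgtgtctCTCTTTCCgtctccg
Rpl35 (chr2:39005117-39005146, minus strand): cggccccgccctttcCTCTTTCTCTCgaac
Rps27 (chr3:90213634-90213663, minus strand): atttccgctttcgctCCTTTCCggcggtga
Rps27rt (chr9:114982725-114982754, minus strand): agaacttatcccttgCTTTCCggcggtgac
Rps27l (chr9:66946071-66946100, plus strand): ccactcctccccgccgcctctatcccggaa
Rpl7l1 (chr17:46782642-46782671, minus strand): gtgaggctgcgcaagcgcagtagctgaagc
Rpl36al (chr12:69184053-69184082, minus strand): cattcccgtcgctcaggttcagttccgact
Rps2 (chr17:24720048-24720077, plus strand): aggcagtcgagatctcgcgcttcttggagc
Rpl41 (chr10:128549154-128549183, minus strand): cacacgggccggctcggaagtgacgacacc
The run was found in 12 of the 54 matched canonical genes, so most have none at the annotated start, Rps2 and Rpl41 among them. Rps27 and its retrogene Rps27rt both held the run at their annotated start, while the starts shown for Rps27l, Rpl7l1 and Rpl36al did not. The rule allowed no offset. In Rps27l a C followed by 4 more pyrimidines begins at the base after the annotated start, and in Rps2 such a run lies further downstream. This contrast therefore depends on the exact position of the annotated start. In the window from 250 bases before to 50 bases after the start, read on both strands, CCGGAAG (the core bound by ETS-family factors such as GABPA) was present in 38.7% of the matched genes, against 20.8% of the other genes in the tables. AAGATGGC, within the motif of the factor YY1, was present in 9.68% against 5.50%, and TATAAA, the TATA box core, in 9.68% against 8.21%. A window could hold several of these motifs, and a match is only a description of the letters at an annotated start.

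The coding sequences of the Rps27 family matter for every value given for it below. They were read from GENCODE M21 on build GRCm38, each 255 bases long. Capitals mark bases that differ from Rps27.
Rps27 (chr3:90212522-90213651, minus strand): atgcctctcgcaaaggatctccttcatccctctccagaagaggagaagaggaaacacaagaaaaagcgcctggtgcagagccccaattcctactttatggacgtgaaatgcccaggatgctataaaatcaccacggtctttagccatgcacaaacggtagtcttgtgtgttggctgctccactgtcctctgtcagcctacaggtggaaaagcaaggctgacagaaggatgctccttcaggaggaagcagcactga
Rps27rt (chr9:114982366-114982739, minus strand): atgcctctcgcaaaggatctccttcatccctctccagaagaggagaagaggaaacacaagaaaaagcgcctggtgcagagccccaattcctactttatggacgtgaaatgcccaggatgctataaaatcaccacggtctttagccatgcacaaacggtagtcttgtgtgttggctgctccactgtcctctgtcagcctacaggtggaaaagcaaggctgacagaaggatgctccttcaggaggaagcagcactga
Rps27l (chr9:66946086-66949516, plus strand): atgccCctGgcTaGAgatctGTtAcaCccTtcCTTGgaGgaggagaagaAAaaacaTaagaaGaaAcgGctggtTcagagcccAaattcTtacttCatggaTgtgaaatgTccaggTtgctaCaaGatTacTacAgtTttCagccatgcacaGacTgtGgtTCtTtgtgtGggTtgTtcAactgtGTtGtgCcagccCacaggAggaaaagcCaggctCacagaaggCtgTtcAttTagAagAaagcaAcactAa
Rps27 and Rps27rt had 0 differences over this stretch, so short reads from it cannot be assigned to either gene by sequence. Rps27l differed from Rps27 at 61 of 255 bases (76.1% identity). Only 22.4% of the 50-base windows of Rps27l transcripts were found exactly in transcripts of another gene, against 98.6% for Rps27. The other paralogs shared 87.9% of coding bases (Rpl36al with Rpl36a), 85.3% (Rpl39l with Rpl39), 67.5% (Rpl22l1 with Rpl22) and 54.5% (Rpl7l1 with Rpl7).

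The genes were strongly and unevenly expressed in every library. Per length, in the authors' deposited FPKM, the highest levels (means of the 4 libraries) included 1364 for Rps15, 1227 for Rpl8, a protein near the peptidyl transferase centre, 909 for Rpl4 and 603 for Rpl32. The lowest were 1.07 for Rpl39l, a paralog best known from testis, 2.92 for Rpl36al, 10.8 for Rpl24, 13.8 for Rpl22l1 and 16.0 for Rps19bp1, a partner of RPS19. Among the 73 canonical genes the highest level was 127-fold above the lowest, although the proteins are needed in like numbers. The rank order was almost the same in each library: Spearman's rho over the 81 FPKM values against Th0 GFP was 0.992 in Tfh-like Tox2, 0.996 in Tfh-like GFP and 0.996 in Th0 Tox2, as a description of libraries that share gene lengths and annotation.

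Count divided by FPKM gave each gene's relative length, scaled to bases by the median ratio, over genes, to all exon bases annotated in GENCODE M21. The scaled length was within 1% of the annotated bases for 73 of the 81 genes. It ranged from 374 for Rps27rt to 6270 bases for Rps15a, and had a median of 1734. Exact 50-base matches to transcripts of another gene, read on both strands, covered a median of 62.2% of a gene's windows. Such matches were to pseudogenes and also to genes overlapping on the opposite strand, such as Wdr38 for Rpl35. Of the 81 genes, 3 had none, Rpl39l and Rps19bp1 among them, and 48 had them in more than 50% of their windows. Over the 73 canonical genes, mean FPKM had a Spearman correlation of -0.35 with this share and of -0.34 with the length, against -0.16 and -0.27 over all 81 (descriptions across genes, which are not replicates). With reads per kilobase of transcript length as the level, the 73 gave -0.36 with the share and 0.080 with the length. Rpl24, at 10.8 FPKM the lowest canonical gene, had 81.7% of its windows in other transcripts and overlaps the gene Gm28037 on the same strand, while Rpl8 had 7.86%. How multi-mapped and overlapping reads were counted is not given in the sources used here, so levels compared between these genes are uncertain, and how far shared sequence set them was not tested.

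**Figure D1:**
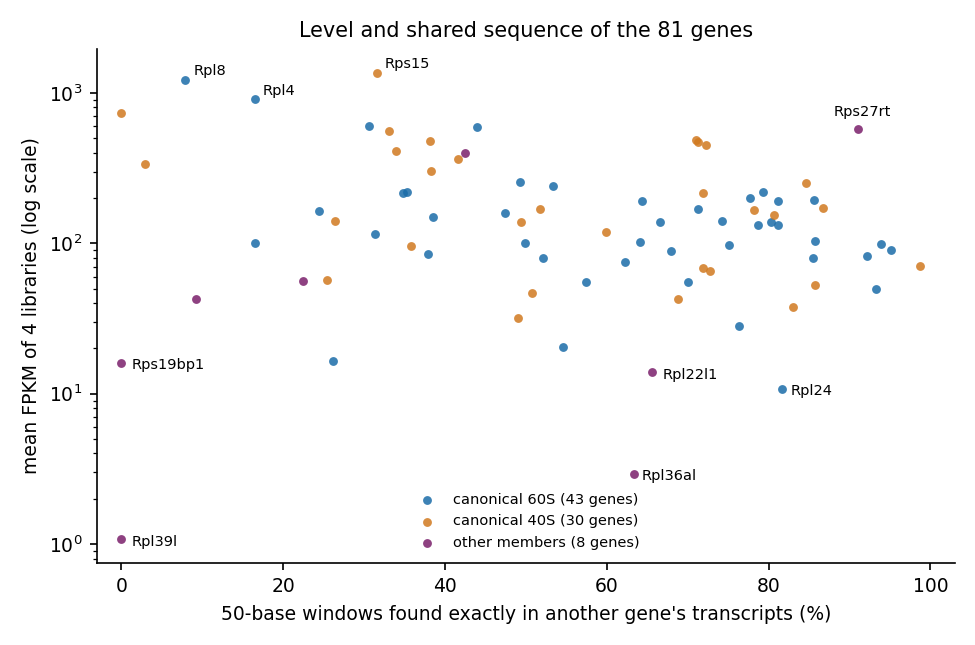
Mean FPKM of the 4 libraries (log scale) against the share of a gene's 50-base transcript windows found exactly in another gene's transcripts (%), 1 point per gene, in blue for canonical 60S, orange for canonical 40S and purple for the 8 other genes. Rps15, Rpl8 and Rpl4 lie highest, and Rpl39l and Rpl36al lie lowest.

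In each library the 81 genes took a small and similar share of all counts. It was 3.52% in Tfh-like Tox2 and 3.49% in Tfh-like GFP, and 3.49% in Th0 Tox2 and 3.80% in Th0 GFP. The exact 95% binomial interval, which covers counting error only, was 3.79 to 3.81% in Th0 GFP, above those of the other 3 libraries. Both subunits showed this. Canonical 60S genes took 1.79%, 1.77%, 1.77% and 1.92% in Tfh-like Tox2, Tfh-like GFP, Th0 Tox2 and Th0 GFP, and canonical 40S genes took 1.64%, 1.63%, 1.63% and 1.78% in the same order. With 1 library per group no replicate spread stands beside these shares. The share depends on the scaling: after TMM scaling the summed CPM of the 81 genes was 35650 and 36133 in Tfh-like Tox2 and Tfh-like GFP, and 34375 and 36813 in Th0 Tox2 and Th0 GFP. Genes encoded by mitochondrial DNA took 2.16% and 1.99% of counts in Tfh-like Tox2 and Tfh-like GFP, and 2.45% in both Th0 libraries, and their part in these shares was not tested. In the deposited FPKM, the 81 genes made up 7.33% and 7.10% of the sum in Tfh-like Tox2 and Tfh-like GFP, and 7.31% and 7.51% in Th0 Tox2 and Th0 GFP. In these bulk libraries, fewer cells of a type and less RNA per cell cannot be told apart.

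Across the 4 libraries the canonical genes stayed close to a constant level. After scaling, the highest library exceeded the lowest by at most 25% for 68 of the 73 genes (93.2%), against 24.5% of all 10960 genes tested. Of the 594 genes with a mean of at least 305 CPM, the median of the canonical genes, 29.8% stayed within 25%. The median highest-over-lowest ratio was 1.12, and the largest was 1.34, for Rpl36. All 73 lay within 1.5-fold, against 54.9% of all genes. Rpl7, for example, had 821 CPM in Tfh-like Tox2 against 798 in Tfh-like GFP, and 788 in Th0 Tox2 against 813 in Th0 GFP, so its 4 values lay close together. Of the 8 other genes, Rpl39l, Rps27l, Rpl36al and Rpl7l1 had ratios of 2.09, 1.95, 1.79 and 1.53. These 4 of 8 lay past 1.5-fold, close to the share of all genes, of which 54.9% lay within it. Rpl39l had only 10 to 21 counts per library and Rpl36al 52 to 90.

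The effects of the virus and of the culture over the whole layout were tested with an additive model on the counts (edgeR's quasi-likelihood test, culture plus virus, Benjamini-Hochberg adjustment over 10960 genes). A gene was called at an adjusted p under 0.05. Its 1 residual degree of freedom is how far the Tox2 effect differs from one culture to the other, moderated across genes, so its p-values hold no information on replicate variation.

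With Tox2 over GFP, 1 of the 81 genes passed, against 6.81% of all genes, and this was Rps27l, which fell. The median log2 fold of the 81 was -0.032, against 0.0015 over all genes tested, and it was 0.055 with the length trend removed. The numbers of canonical genes passing were 0 of 43 and 0 of 30 in the 60S and 40S groups. At an unadjusted p under 0.05 were 2 of the 73, against 3003 of all 10960 genes. Those 2 were Rps2, a core 40S protein, with a log2 fold of -0.31 (SE 0.093, edgeR adjusted p = 0.0926), and Rpl41, the smallest ribosomal protein, with -0.25 (SE 0.10, adjusted p = 0.180). DESeq2 and limma-voom likewise called 0 of the 73, against 492 and 902 of all 10960 genes. Rps2 had 961 CPM in Tfh-like Tox2 against 1194 in Tfh-like GFP, and 954 in Th0 Tox2 against 1186 in Th0 GFP, with both Tox2 libraries below both GFP libraries. Rpl41 had 828 against 910 CPM in the Tfh-like pair and 760 against 979 CPM in the Th0 pair, again without overlap. Both genes were picked by their p in the fit to these same libraries, so this separation adds no support.

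With the Tfh-like culture over Th0, 1 of the 81 genes passed, against 24.2% of all genes, and it was again Rps27l. The median log2 fold of the 81 was 0.016, against -0.0079 over all genes, and it was -0.053 with library totals only, where that of all genes was -0.077. Among the 73 canonical genes 0 passed in edgeR, DESeq2 and limma-voom, against 2656, 1619 and 2800 of all 10960 genes. In edgeR 1 of the 73 had an unadjusted p under 0.05, against 4120 of all genes. That was Rpl36, a 60S protein, with a log2 fold of 0.30 (SE 0.11, adjusted p = 0.0879), while the ribosomal stress sensors Rpl5 and Rpl11, which with 5S rRNA bind and inhibit MDM2, had log2 folds of 0.12 (SE 0.097) and 0.079 (SE 0.11). Rps6, the substrate of the S6 kinases, had 0.13 (SE 0.097) for the culture and -0.16 (SE 0.097) for Tox2. Rps19, whose human gene is mutated in Diamond-Blackfan anaemia, had -0.040 (SE 0.096) for the culture and -0.16 (SE 0.096) for Tox2.

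Rps27l, a paralog of Rps27 known in human and mouse cells as a target of p53, was the gene that moved with both factors. It had 546 counts in Tfh-like Tox2 against 775 in Tfh-like GFP, and 701 in Th0 Tox2 against 1069 in Th0 GFP. Scaled, this was 40.8 against 59.4 CPM in the Tfh-like pair and 50.5 against 79.5 CPM in the Th0 pair. The library with both Tox2 and IL-6 was the lowest and the library with neither was the highest. Over both cultures Rps27l fell by 0.60 on the log2 scale with Tox2 (SE 0.10, edgeR adjusted p = 0.0260). Over both viruses it fell by 0.37 in Tfh-like culture (SE 0.10, edgeR adjusted p = 0.0450). The calls were lost with DESeq2 for both effects, with the length trend of each library removed for Tox2, where the log2 fold was -0.44, and with GC and length trends removed for both, where the folds were -0.44 and -0.31.

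The partner genes lay the other way. Rps27 had 1399 counts in Tfh-like Tox2 against 1139 in Tfh-like GFP, and 1305 in Th0 Tox2 against 1110 in Th0 GFP. Rps27rt had 4076 against 3339 counts in the Tfh-like pair and 3744 against 3299 in the Th0 pair. Both were higher in each Tox2 library, with log2 folds for Tox2 of 0.22 (SE 0.10, adjusted p = 0.215) and 0.19 (SE 0.10, adjusted p = 0.262), neither of which passed. Rps27rt took 74.4%, 74.6%, 74.2% and 74.8% of the counts of these 2 genes in Tfh-like Tox2, Tfh-like GFP, Th0 Tox2 and Th0 GFP. This near-constant split, for 2 genes of identical coding sequence, is no evidence of how their transcripts divide.

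Set against its partners within each library, where library scaling cancels, Rps27l took 9.07% of the family's counts in Tfh-like Tox2 (exact binomial interval 8.35 to 9.82%) against 14.8% in Tfh-like GFP (13.8 to 15.7%). In Th0 it took 12.2% with Tox2 (11.4 to 13.1%) against 19.5% with GFP (18.5 to 20.6%). The 4 intervals, which cover counting error only, did not overlap. Rps27l was the gene called in the fit to these same libraries, so this separation adds no support. Its share was lower with Tox2 in both cultures and lower in Tfh-like culture with both viruses. The share shows unequal change, not which gene changed.

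**Figure D2:**
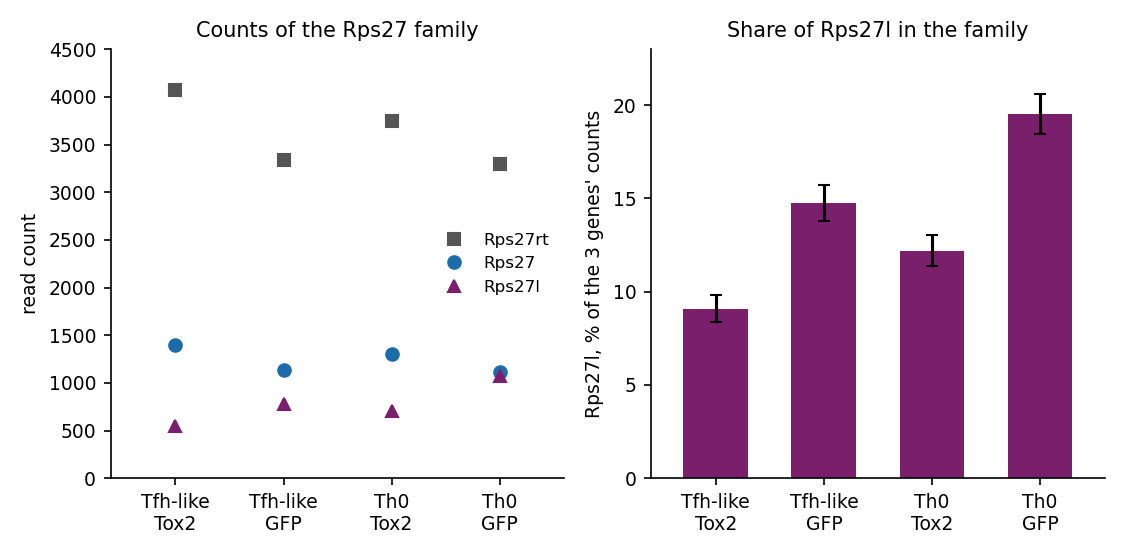
Left, read counts of Rps27rt, Rps27 and Rps27l in the 4 libraries, 1 point per library; right, Rps27l as a percentage of the 3 genes' counts, with exact 95% binomial intervals as bars. Rps27l ran from 546 counts in Tfh-like Tox2 up to 1069 in Th0 GFP, and its share spanned 9.07% to 19.5%.

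The other name-sharing genes differed among themselves. Rpl7l1, whose yeast relative Rlp7 acts in assembly of the large subunit, had 112 CPM in Tfh-like Tox2 against 140 in Tfh-like GFP, and 132 in Th0 Tox2 against 172 in Th0 GFP. Its order over the libraries was that of Rps27l, and its log2 folds were -0.35 (SE 0.10, edgeR adjusted p = 0.0883) for Tox2 and -0.27 (SE 0.10, adjusted p = 0.101) for the culture. Rps19bp1 stood at 27.5 CPM in Th0 GFP and at 18.4 to 21.4 CPM in the other 3 libraries. Rpl36al, a copy of the X-linked Rpl36a, had only 59 and 64 counts in Tfh-like Tox2 and Tfh-like GFP, and 52 and 90 in Th0 Tox2 and Th0 GFP. Rpl39l had 10 to 21 counts per library, too few to show a difference of its size. Rpl22l1, the paralog of Rpl22, a protein needed for the development of alpha-beta T cells in mice, held 5.19% to 5.77% of the counts of the Rpl22 pair, with intervals that overlapped in all 4 libraries. Rpl37rt had log2 folds of -0.014 for Tox2 and 0.098 for the culture, beside -0.021 and 0.084 for its partner Rpl37. Rpl3l, Rpl10l and Rps4l were not analysed here.

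The 4 pairs of libraries were then compared by the log2 fold of scaled CPM (prior count 2), and an exact binomial interval at 95% gave the counting error of each. These comparisons have no replicate check and carry no p. The median half-width of the intervals on the log2 scale was 0.064 to 0.066 over the 81 genes and 0.17 to 0.18 over all genes. Intervals of the 81 thus excluded no difference at smaller folds, so shares called by the interval alone are not alike. In all 4 pairs, 0 of the 81 genes were 2-fold apart, against 4.74% of all genes for Tox2 over GFP in Th0, 4.75% for Tox2 over GFP in Tfh-like, 10.9% for Tfh-like over Th0 with GFP and 9.43% with Tox2.

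For Tox2 over GFP in Th0, the median log2 fold of the 81 genes was -0.090, with 62 below 0 and 19 above, against a median of -0.00080 over all genes. Counting intervals excluded no difference for 5 genes that were higher (28.5% of all genes) and 47 that were lower (27.7% of all genes). Apart by 25% or more, higher library over lower, with such an interval were 5 of the 81, against 31.8% of all genes. All 5 were lower with Tox2, against 14.1% of all genes. They were Rpl36al (-0.81, interval -1.36 to -0.33), Rps27l (-0.65, -0.80 to -0.52), Rps19bp1 (-0.58, -0.82 to -0.35), Rpl7l1 (-0.38, -0.46 to -0.29) and the canonical Rpl41 (-0.37, -0.40 to -0.33). The highest were Rps27 (0.19), Rps27rt (0.13) and Rpl30 (0.11). The median was 0.039 with the length trend of each library removed, and 52 genes were then above 0. The fold had a Spearman correlation with gene length of 0.30 over all 10960 genes and of 0.097 over the 81, whose median length was 0.40 of that of all genes, and the part of length in the median was not tested.

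For Tox2 over GFP in Tfh-like, the median was 0.015, with 47 genes above 0 and 34 below, and it was -0.0049 with DESeq2 size factors. Intervals excluded no difference for 20 higher genes (25.3% of all genes) and 20 lower ones (27% of all genes). Of the 81, 1 was 25% or more apart, against 27.2% of all genes, and it was lower (13.1% of all genes): Rps27l (-0.54, interval -0.70 to -0.38). The next lowest were Rpl39l (-0.35) and Rpl7l1 (-0.32), and the highest were Rps15a (0.31), Rps27 (0.26) and Rps27rt (0.25).

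For Tfh-like over Th0 with GFP, the median was -0.018, with 33 genes above 0 and 48 below, and it was 0.014 with the length trend removed. Intervals excluded no difference for 9 higher genes (32.1% of all genes) and 26 lower ones (31.2% of all genes). Apart by 25% or more were 3 of 81, against 41.5% of all genes, and all 3 were lower (19% of all genes): Rps27l (-0.42, interval -0.56 to -0.29), Rps19bp1 (-0.36, -0.59 to -0.13) and the canonical 40S gene Rps29 (-0.34, -0.46 to -0.22). Rpl39l (-0.58) and Rpl36al (-0.44) were lower still, with intervals that included no difference. The highest were Rpl36 (0.21), Rpl7a (0.16) and Rpl30 (0.12).

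For Tfh-like over Th0 with Tox2, the median was 0.066, with 60 genes above 0 and 21 below. Intervals excluded no difference for 42 higher genes and 8 lower ones, against 29.2% of all genes in each direction. Of the 81, only Rpl36 was 25% or more apart, with 114 CPM in Tfh-like Tox2 against 86.7 in Th0 Tox2 (log2 fold 0.40, interval 0.29 to 0.51), against 35.2% of all genes in both directions and 19% higher. Rpl38, which in mice affects translation of Hox mRNAs, and Rpl24 followed with 0.28 and 0.27, and Rpl39l (-0.54), Rps27l (-0.31) and Rpl7l1 (-0.24) were lowest. With the length trend removed, the median was -0.0041 with 37 genes above 0. Since pairs share libraries, their values are set side by side and not compared.

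The difference of the Tox2 fold between the cultures (Tfh-like minus Th0) had a median of 0.093 over the 81 genes, with 74 above 0 and 7 below. Over all 10960 genes the median was -0.0010, with 5467 above 0 and 5493 below. Of the gene lists described below, 61 of 76 mitochondrial ribosomal protein genes and 32 of 46 nucleolar factors were also above 0. So were 17 of 25 translation factors and other TOP genes, 10 of 15 RNA polymerase I genes and 5 of 6 ribosomal proteins outside the rule. Of the 30 mTORC1 genes, 14 were above 0 and 16 below. The difference leaves no degree of freedom for a test, and with the length trend removed the median of the 81 was -0.018. Rpl36al (0.67, counting interval -0.04 to 1.38), Rps19bp1 (0.44, 0.11 to 0.78) and Rpl38 (0.35, 0.14 to 0.56) were highest, and Rpl7a (-0.20, -0.29 to -0.11), Rpl30 (-0.11) and Rpl27 (-0.10) lowest.

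**Figure D3:**
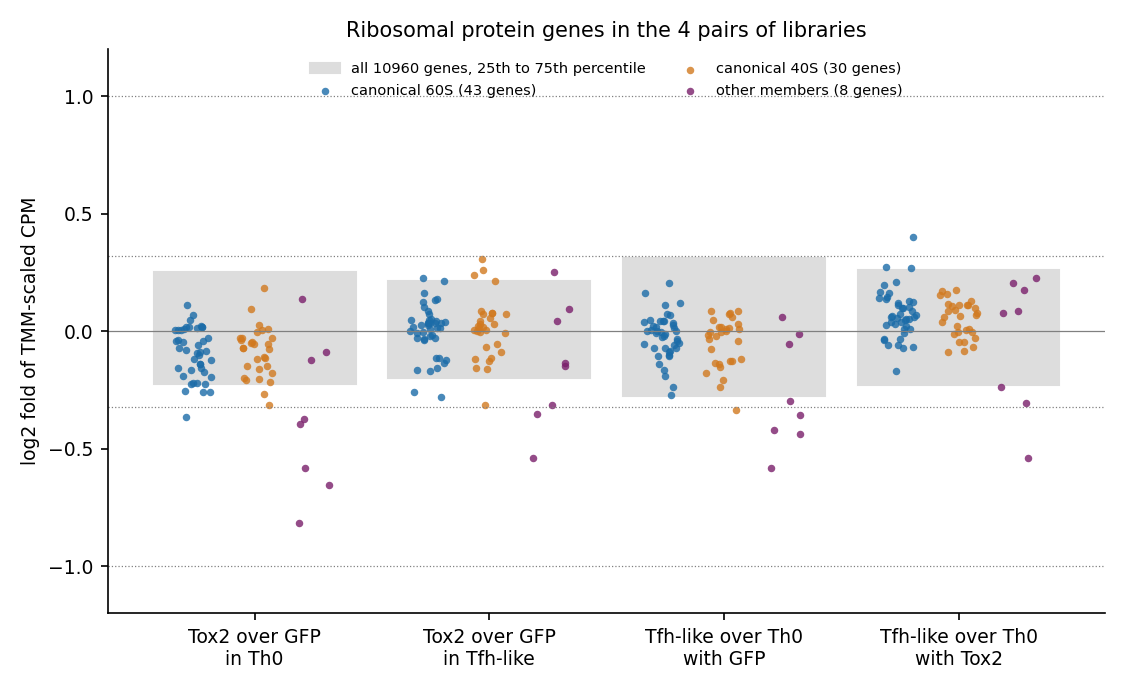
Log2 fold of TMM-scaled CPM of each of the 81 genes in the 4 pairs of libraries, in blue for 60S, orange for 40S and purple for the 8 other genes, with grey boxes for the 25th to 75th percentile of all 10960 genes and dotted lines at differences of 25% and 2-fold. Most canonical genes lie inside the grey boxes, none of the 81 reaches 2-fold, and the lowest points, down to -0.81 for Rpl36al, are purple.

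Of 6 ribosomal proteins whose names fall outside the rule, 0 passed for either factor in edgeR. At an unadjusted p under 0.05 were 0 for Tox2 and 1, Fau, for the culture, against 3003 and 4120 of all 10960 genes. The stalk proteins Rplp0, Rplp1 and Rplp2 had log2 folds for Tox2 of 0.032 (SE 0.089), -0.19 (SE 0.093) and -0.041 (SE 0.10), and for the culture of -0.091, -0.12 and -0.019. Rpsa, a 40S protein, had -0.036 for Tox2 and -0.074 for the culture. Fau, made as a fusion with a ubiquitin-like protein, had 0.062 for Tox2 and 0.33 (SE 0.099, edgeR adjusted p = 0.0571) for the culture. With the length trend removed, 1 of the 6 was called higher for the culture (16.7%), against 13.5% of all genes. Rack1 was not analysed here.

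Of 46 factors that build ribosomes in the nucleolus, 12 fell and 0 rose with Tox2 (26.1% lower, against 2.74% of all genes), and 24 fell and 0 rose in Tfh-like culture (52.2% lower, against 9.96% of all genes). The log2 folds of 46 of the 46 were below 0 for Tox2 and those of 41 for the culture, against 5451 and 5587 of all 10960 genes. The median log2 folds of the 46 were -0.40 and -0.42, against -0.032 and 0.016 for the 81 ribosomal protein genes. With Tox2, Pno1, an assembly factor of the small subunit, fell by 0.99 (SE 0.12, edgeR adjusted p = 0.0105), Bysl, another such factor, by 0.68 (SE 0.11), the U3 snoRNP protein Rrp9 by 0.67 (SE 0.12) and the box C/D snoRNP protein Nop56 by 0.65 (SE 0.11). Pno1 had 442 counts in Tfh-like Tox2 against 759 in Tfh-like GFP, and 462 in Th0 Tox2 against 996 in Th0 GFP, so both Tox2 libraries were below both GFP libraries. In Tfh-like culture Dkc1, the pseudouridine synthase of box H/ACA snoRNPs, fell by 0.83 (SE 0.11, edgeR adjusted p = 0.00337), the snoRNP chaperone Nolc1 by 0.71 (SE 0.10), Nop58 by 0.68 (SE 0.12) and Utp20 by 0.66 (SE 0.10). Dkc1 had 483 counts in Tfh-like Tox2 and 592 in Tfh-like GFP, against 821 in Th0 Tox2 and 1174 in Th0 GFP, with both Tfh-like libraries below both Th0 libraries. Pno1 and Dkc1 were picked for the size of their folds in these same libraries, so their separation adds no support.

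The number of these genes called for Tox2 depended on the fit. It was 19 with library totals only, 15 with limma-voom and 14 with DESeq2 size factors in edgeR, where 4.67%, 3.5% and 3.55% of all genes were called lower. It was 6 with DESeq2, 4 with the length trend removed and 1 with GC and length trends removed, where the share of all genes called lower was also smaller, at 1.74%, 1.31% and 0.529%. The median log2 fold was -0.41 in each of the last 3. For the culture, 10 were called with DESeq2, 23 with the length trend removed and 24 with GC and length trends removed, with 5.07%, 9.34% and 9.16% of all genes called lower. No test set the list against the ribosomal protein genes or against other lists.

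RNA polymerase I, which makes the large rRNA precursor, and its factors changed in few genes. Of 15 listed, 1 rose and 0 fell with Tox2 (6.67% higher, against 4.07% of all genes), and 0 rose and 2 fell in Tfh-like culture (13.3% lower, against 9.96% of all genes), shares close to those of all genes. Ubtf, which holds rRNA genes in an active state, rose by 0.51 with Tox2 (SE 0.098, edgeR adjusted p = 0.0348) and fell by 0.55 in Tfh-like culture (SE 0.098, edgeR adjusted p = 0.00972), and the subunit gene Polr1b fell by 0.68 in Tfh-like culture (SE 0.10). Myc, a general activator of ribosome synthesis genes, had log2 folds of -0.37 (SE 0.12, edgeR adjusted p = 0.118) and 0.21 (SE 0.12, edgeR adjusted p = 0.262), neither past the threshold. With the length trend removed, 0 of the 15 passed for Tox2, against 361 of all 10960 genes.

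Among 25 genes of translation factors and other TOP mRNAs, 0 rose and 1 fell with Tox2 (4% lower, against 2.74% of all genes). In Tfh-like culture 1 rose and 0 fell (4% higher, against 14.3% of all genes), and the medians were -0.049 and -0.012. The first was Ybx1, an RNA-binding protein, which fell by 0.54 (SE 0.094, edgeR adjusted p = 0.0278) and the other Vim, the intermediate filament vimentin, which rose by 0.90 (SE 0.11, edgeR adjusted p = 0.00208). Of 76 genes of mitochondrial ribosomal proteins, which are encoded in the nucleus, 2 fell with Tox2, Mrps10 (-0.61, SE 0.13) and Mrpl20 (-0.48, SE 0.10), which is 2.63% against 2.74% of all genes lower. In Tfh-like culture 1 rose, Mrpl44 (0.44, SE 0.10), which is 1.32% against 14.3% of all genes higher. Their medians were -0.17 and -0.13, and they took 0.348% and 0.363% of counts in Tfh-like Tox2 and Tfh-like GFP, against 0.363% and 0.439% in Th0 Tox2 and Th0 GFP. DESeq2 called 0 of the 76 for either factor, against 492 of all 10960 genes for Tox2 and 1619 for the culture. With the length trend removed, 0 of the 76 and 0 of the 25 passed for Tox2, against 361 of all genes.

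Of 30 genes of the mTORC1 pathway, which controls translation of ribosomal protein mRNAs, 3 rose and 0 fell with Tox2 (10% and 0%, against 4.07% of all genes higher and 2.74% lower). In Tfh-like culture 5 rose and 4 fell (16.7% and 13.3%, against 14.3% and 9.96% of all genes), shares close to those of all genes. For Tox2, 1 of the 30 rose with the length trend removed (3.33%, against 1.98% of all genes). With Tox2 the lysosomal arginine sensor Slc38a9 rose by 0.68 (SE 0.11, edgeR adjusted p = 0.0241), and the stress-induced mTORC1 inhibitors Sesn1 and Sesn3 by 0.64 (SE 0.10) and 0.63 (SE 0.10). In Tfh-like culture Eif4ebp1, the repressor of cap-dependent translation that mTORC1 inactivates, rose by 1.40 (SE 0.10, edgeR adjusted p = 0.000425), Sesn3 by 0.92 (SE 0.10), and the Rag GTPase genes Rragd and Rraga by 0.74 (SE 0.14) and 0.49 (SE 0.10), and Ddit4, an inhibitor of mTORC1, by 0.42 (SE 0.10). Sesn1 fell by 1.15 (SE 0.10, edgeR adjusted p = 0.000847), Sesn2 by 0.55 (SE 0.11), the mTORC1 activator Rheb by 0.43 (SE 0.12) and Flcn by 0.38 (SE 0.10). With GC and length trends removed, 0 of the 30 passed for Tox2, against 169 of all 10960 genes. Eif4ebp1 had 2527 counts in Tfh-like Tox2 and 3158 in Tfh-like GFP, against 1028 in Th0 Tox2 and 1185 in Th0 GFP. RNA counts do not measure the activity of mTORC1 or the translation of TOP mRNAs.

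**Figure D4:**
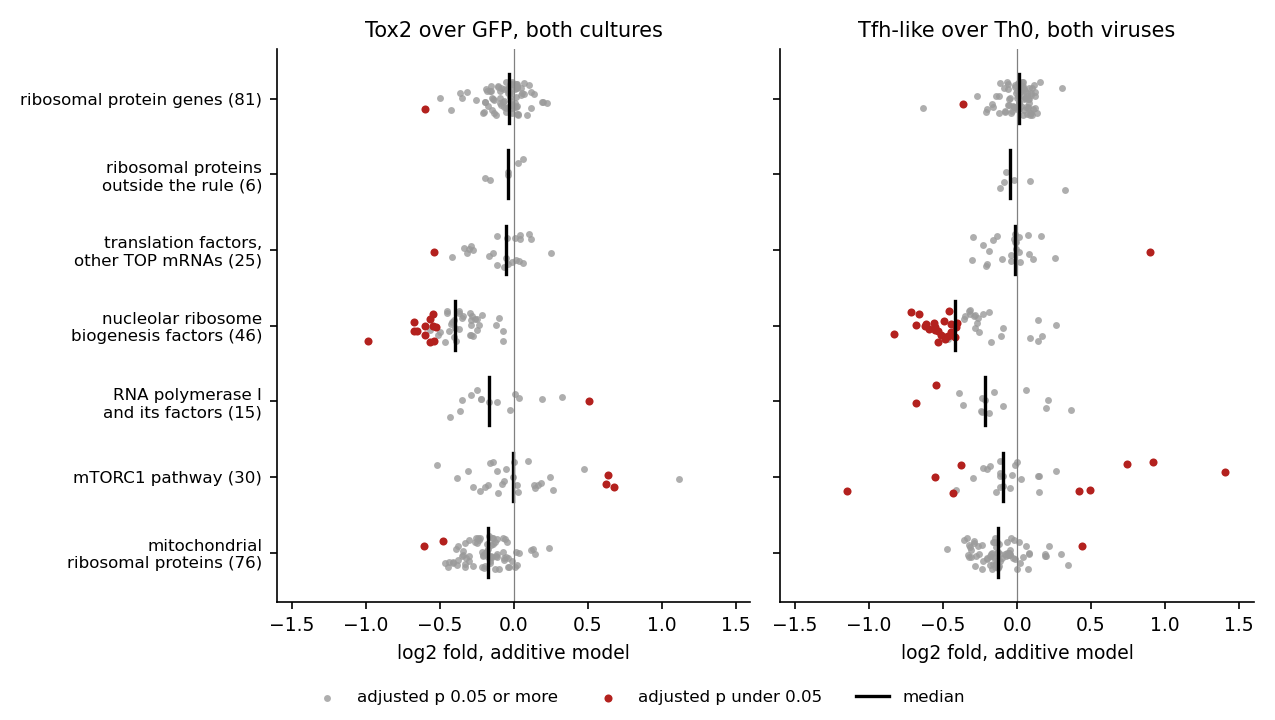
Log2 fold of the additive model for the 81 ribosomal protein genes and 6 gene lists, 1 point per gene with the number of genes in brackets, for Tox2 over GFP on the left and Tfh-like over Th0 on the right. Red points passed at an adjusted p under 0.05 and black lines are medians, which lie at -0.40 and -0.42 for the nucleolar factors and at -0.032 and 0.016 for the ribosomal protein genes.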

How the data were processed

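RNA-seq was measured in 4 libraries of sorted mouse CD4+ T cells, 1 per group. Trizol was used to extract total RNA, and BGI made the libraries, per the labels' protocols. The deposited files hold raw whole-number read counts per gene, which the authors did not normalize, and FPKM that the authors computed for the same genes, per the file headers and the values. The submitters' processing notes list the build mm10 and, with no role or order, MACS2, edgeR, Subread, featureCounts, Bowtie2 and Trim Galore 0.4.4. For annotation, strand setting and multi-mapped reads the handling was not given in the sources used here. The tables held a reduced list, with a second-highest value of at least 0.658 CPM for each gene and at least 24 counts over the 4 libraries.

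Counts were scaled by TMM (factors 0.987, 0.966, 1.02 and 1.03 for Tfh-like Tox2, Tfh-like GFP, Th0 Tox2 and Th0 GFP) and tested with edgeR 4.0.16 in R 4.3.3 at 1 CPM or more in at least 1 library. The additive fit had 1 residual degree of freedom, a median of 5.52 prior degrees of freedom and a common biological coefficient of variation of 0.105. Pairs were described with exact 95% conditional binomial intervals. Since reads carried no molecular identifiers, they may not be independent molecules, and intervals cover counting error only. A count of 0 would allow up to 3 counts, or 0.219 to 0.230 CPM, but no gene of the group had a 0. Both procedures were tested on simulated data. FPKM was used for levels between genes and for lengths.

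The members, the gene lists and the rule for named genes were chosen with earlier results of these data known. The rule takes members that passed, the 3 highest and 3 lowest of each pair and of the difference, the 5 highest and 5 lowest by FPKM, the paralogs with their partners, Rps6, Rps19, Rpl5 and Rpl11, and up to 4 passing genes per list and effect, by size of fold. Rps2, Rpl41 and Rps29, as genes behind small counts, Rpl37, Myc and the smaller changes among the mTORC1 genes were named after their values were seen. Alternatives were other scalings, filters, prior counts, DESeq2 1.42.0, limma-voom (limma 3.58.1) and trends of each library on length and GC. Some genes that the rule takes are not reported here.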

Additional observations from a re-analysis of the deposited data

Results flagged for a closer look

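Of the 81 genes, 5 had Tox2 folds of opposite sign in the 2 cultures, with counting intervals that excluded no difference in both. That is 6.17% of the 81, and 4.51% of all 10960 genes met the same rule. Counting intervals were narrower for the 81 (median half-widths of 0.064 and 0.17 for Tox2 over GFP in Th0), so these shares are not alike. The difference of the Tox2 fold was not tested, since each group has 1 library, and the folds are small. On the log2 scale in Th0 and Tfh-like, they were -0.14 and 0.12 for Rpl37a, -0.12 and 0.094 for Rpl37rt, -0.045 and 0.041 for Rpl7, -0.053 and 0.079 for Rps15, and -0.070 and 0.22 for Rps26.

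In the same way 7 genes had culture folds (Tfh-like over Th0) of opposite sign with the 2 viruses, and this difference was not tested either. That is 8.64% of the 81, whose counting intervals were again narrower, against 3.24% of all genes, and the share was not tested. With GFP and with Tox2 they were -0.11 and 0.20 for Rpl23, -0.19 and 0.071 for Rpl37a, -0.089 and 0.12 for Rpl39, -0.11 and 0.12 for Rpl41, -0.13 and 0.11 for Rps21, -0.13 and 0.088 for Rps24, and -0.21 and 0.077 for Rps26. Rps26, a 40S protein, and Rpl37a, a 60S protein, were in both sets, which share their libraries.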

How the results depend on the processing

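No paired analysis was possible because each group had 1 library, and for the same reason no replicate could be left out. Of the 81 genes, the number passing for Tox2 was 0 with DESeq2, with the length trend removed and with GC and length trends removed, against 1 (Rps27l) as reported. Of all 10960 genes, 492, 361 and 169 passed for Tox2 in these settings, against 746 as reported. For the culture the number of the 81 was 2 with library totals only, where Rpl7l1 also passed, and 0 with DESeq2 and with GC and length trends removed. Of all genes, 3149, 1619 and 2406 passed for the culture in these settings, against 2656 as reported. Of the 46 nucleolar factors, 19 passed for Tox2 with library totals only, 6 with DESeq2, 4 with the length trend removed and 1 with GC and length trends removed, while 4.67%, 1.74%, 1.31% and 0.529% of all genes were called lower. For the culture 10 passed with DESeq2, where 5.07% of all genes were called lower. The median prior degrees of freedom were 4.12 with the length trend and 3.58 with GC and length trends removed, and the cause of these changes was not tested.

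The median log2 fold of the 81 genes with the length trend removed was 0.039 for Tox2 over GFP in Th0, -0.0041 for Tfh-like over Th0 with Tox2 and -0.018 for the difference of the Tox2 folds. With library totals only it was -0.11 for Tfh-like over Th0 with GFP, where the median of all genes was -0.11 too. The number 25% or more apart for Tox2 over GFP in Tfh-like was 3 with DESeq2 size factors, 2 with library totals only, 2 with the length trend removed and 0 over canonical genes. For Tox2 over GFP in Th0 it was 1 over canonical genes. For Tfh-like over Th0 with GFP it was 8 with library totals only and 1 over canonical genes, and with Tox2 it was 2 with DESeq2 size factors and with library totals only.

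The share of the 81 genes was 7.33% and 7.10% of summed FPKM in Tfh-like Tox2 and Tfh-like GFP, and 7.31% and 7.51% in Th0 Tox2 and Th0 GFP. Without mitochondrially encoded genes it was 3.596% and 3.56% of counts in Tfh-like Tox2 and Tfh-like GFP, and 3.58% and 3.90% in Th0 Tox2 and Th0 GFP. Settings with GC trends, those over canonical genes alone and those for the nucleolar factors were chosen after seeing the data. Genes with few reads, such as Rpl39l, had intervals too wide for small differences.

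Of 412 fitted log2 folds of single named genes under alternatives, 32 changed sign, none of them past the threshold before or after. For Tox2, Rpl5 was -0.0068 with DESeq2 size factors and -0.0070 with DESeq2, and Rpl7 was 0.0016 with library totals only and 0.0014 with TMM without the 81 genes. With the length trend removed, and with GC and length trends removed, Rpl22l1 was 0.056 and 0.053, Rpl37rt 0.14 and 0.14, Rpl39 0.022 and 0.018, Rpl37 0.074 and 0.070, and Rpl7 0.052 and 0.053 for Tox2. For the culture with library totals only, Rpl22l1 was -0.058, Rpl36a -0.029, Rpl39 -0.054, Rpl7 -0.053, Rpl41 -0.060, Rps2 -0.059 and Rps15a -0.0050. With the length trend removed, Rpl22l1 was -0.012, Rpl39 -0.0011, Rpl7 -0.0032, Rpl41 -0.0032 and Rps2 -0.011, and with GC and length trends removed Rpl41 was -0.057 and Rps2 -0.067. Rpl41 was -0.0021 with DESeq2 size factors and -0.0020 with DESeq2, and Rps2 -0.00052 and -0.00041. The cause of these changes was not tested.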
